A study of Homo sapiens with 78 samples.

Results

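The P-type calcium pumps were examined in single Jurkat and A375 cells, gene by gene and transcript by transcript. The genes were ATP2A2 and ATP2A3 (sarco/endoplasmic reticulum calcium ATPases, SERCA), ATP2B1 and ATP2B4 (plasma membrane calcium ATPases, PMCA) and ATP2C1 (the secretory pathway calcium ATPase, SPCA). They are 5 of the 9 genes of the 3 families, among 58388 genes in the tables, and each value is the sum over a gene's transcripts in a well. ATP2A3 was chosen by its level in Jurkat in these same data, so its values are a description. The other 4 family genes, ATP2A1, ATP2B2, ATP2B3 and ATP2C2, are given where they bear on a share.

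Calcium pumps move calcium ions out of the cytosol against their gradient at the cost of ATP. SERCA pumps fill the endoplasmic reticulum, from which the ions are released during signalling, PMCA pumps expel calcium from the cell, and SPCA pumps load the Golgi apparatus with calcium and manganese. SERCA2, the ATP2A2 product, is made in most cells, whereas SERCA3, the ATP2A3 product, is known from blood cells and some epithelia and has a lower affinity for calcium. In T cells these pumps end the calcium signal that follows receptor engagement and that drives calcineurin and NFAT.

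Each library came from 1 flow-sorted cell and was made with 1 of 2 stranded total RNA kits, named here by catalogue number: kit 634413 (the SMARTer Stranded Pico Input Mammalian kit, version 2) and kit 634444 (SMART-Seq Stranded Kit). Jurkat clone E6-1, a T cell leukaemia line, gave 18 wells per kit, and A375, an adherent melanoma line, gave 21 wells per kit, none of them treated. Jurkat cells were labelled with anti-CD81 and sorted into lysis solution, and A375 cells were labelled with anti-CD47 and sorted into PBS, so line, growth medium, sort label and buffer cannot be told apart in any difference below. The labels name no separate cultures, so each line and kit counts as 1 sample and no test between groups was run. Levels are counts summed over all wells of a group, per 1000000 counts (CPM) outside the ribosomal DNA unit and spike sequences, with exact 95% intervals that cover counting error only, since PCR reads without molecular identifiers are not independent molecules.

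Totals ran from 909 to 2567265 counts per well, with a median of 813697. Values per well are given for the 69 of 78 wells with at least 203424 counts, which is 25% of that median, and all 9 shallower wells were A375. In 2 of the 17 deeper A375 wells of kit 634413 under 25% of counts lay on protein coding genes, and leaving out the 6 and 1 A375 wells of all depths under that share ended no call reported below. The line labels held: the 10 T cell markers summed to a median of 1714 CPM and 1910 CPM in Jurkat wells (kit 634413 and kit 634444) and 0 CPM and 3.51 CPM in A375 wells, and the 8 adherent melanoma markers stood above the T cell markers in 17 of 17 and 16 of 16 A375 wells. Of the 8 melanocyte markers, 4 and 5 had under 50 counts in A375.

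All 5 pumps carry the catalytic aspartate that is phosphorylated by ATP in each transport cycle, within a conserved motif of 5 codons. The coding bases around it are shown, from the reference transcripts of GENCODE on hg38, because they give the site that defines the family and the distance between its members; capitals mark the 15 bases of the motif.
ATP2A2, chr12:110327949-110328008, plus strand, exon 8 of 20: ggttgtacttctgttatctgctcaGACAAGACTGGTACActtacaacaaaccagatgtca
ATP2A3, chr17:3947400-3947459, minus strand, exon 8 of 21: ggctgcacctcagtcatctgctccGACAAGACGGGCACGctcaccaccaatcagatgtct
ATP2B1, chr12:89621678-89621737, minus strand, exon 10 of 21: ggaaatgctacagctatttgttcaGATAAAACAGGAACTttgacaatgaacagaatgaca
ATP2B4, chr1:203707916-203707975, plus strand, exon 10 of 21: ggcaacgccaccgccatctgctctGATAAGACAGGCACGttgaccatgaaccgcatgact
ATP2C1, chr3:130964095-130965006, plus strand, across an exon junction: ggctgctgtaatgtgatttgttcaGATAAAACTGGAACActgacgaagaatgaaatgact
All 5 stretches are coding. The motif starts at codon 351 in both SERCA genes, at codon 475 in ATP2B1, 465 in ATP2B4 and 350 in ATP2C1. ATP2A2 and ATP2A3 shared 46 of the 60 bases shown and 67.7% of aligned positions over the whole coding sequence, and ATP2B1 and ATP2B4 shared 45 of 60 and 68.7%. Between families the whole-length figure ran from 43.7% to 49.8%. Among the annotated transcripts of the 5 genes, only ATP2B1 and ATP2B4 had any stretch of 31 bases in common, 2 such stretches, so that reads of ATP2A2 and ATP2A3 could be told apart at Kallisto's default word length.

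ATP2A3 was the pump gene whose wells did not overlap between the lines. In Jurkat it lay at 470 CPM (460 to 481) with kit 634413 and 387 CPM (376 to 398) with kit 634444, from 7402 and 4887 counts. In A375 it had 4 counts over 21 wells with kit 634413, or 0.252 CPM (0.0686 to 0.644), and 1 count over 21 wells with kit 634444, or 0.0748 CPM (0.00189 to 0.417). The 4 counts fell in 2 wells, 3 of them in A375 replicate 3, and the single count in A375 replicate 8 of the other kit.

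Well by well, ATP2A3 ranged in Jurkat from 93.9 CPM through a median of 410 CPM to 1273 CPM with kit 634413 and from 193 CPM through 381 CPM to 539 CPM with kit 634444. In A375 the lowest and median wells were at 0 and the highest at 2.87 CPM and 0.858 CPM. All 18 Jurkat wells of each kit lay above the highest A375 well. Over all genes, 0.354% (63 of 17807) showed such a gap with kit 634413 and 0.813% (138 of 16983) with kit 634444, and no other pump gene did. The pooled ratio of Jurkat over A375 was 1869-fold (730 to 6862) and 5177-fold (929 to 204511). These ratios rest on 4 counts and 1 count: without A375 replicate 3 the first was 6986-fold, and without A375 replicate 8 the second has no value.

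ATP2A2, the SERCA gene of most cells, was found in both lines. It lay at 221 CPM (214 to 229) and 220 CPM (211 to 228) in Jurkat and at 356 CPM (347 to 366) and 354 CPM (344 to 364) in A375. Wells of Jurkat ran from 85.2 CPM through 194.8 CPM to 453 CPM with kit 634413 and from 51.1 CPM through 240 CPM to 314 CPM with kit 634444. Wells of A375 ran from 0 through 334 CPM to 703 CPM and from 222 CPM through 341 CPM to 465 CPM. The lines overlapped, although 15 of 17 and 15 of 16 A375 wells stood above the Jurkat median.

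The A375 over Jurkat ratio of ATP2A2 was 1.61-fold (1.54 to 1.68) with kit 634413 and 1.61-fold (1.54 to 1.69) with kit 634444, under the 2-fold limit used here for a call. The mean of deposited TPM values over all wells, which weights transcripts by length, gave the opposite direction with kit 634413, 1.20-fold higher in Jurkat. That mean took in the 4 shallower A375 wells. Over the deeper wells the means were 59.7 TPM in Jurkat and 61.2 TPM in A375, so the direction did not turn. In Jurkat with that kit 9.34% of ATP2A2 counts lay on ATP2A2-211, a transcript of 529 bases, against 0.498% in A375. The part of this in the TPM values was not tested. ATP2A1, the SERCA gene of fast skeletal muscle, stayed between 2.96 CPM and 4.51 CPM in all 4 groups and was detected in 3 to 6 wells of each.

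**Figure D1:**
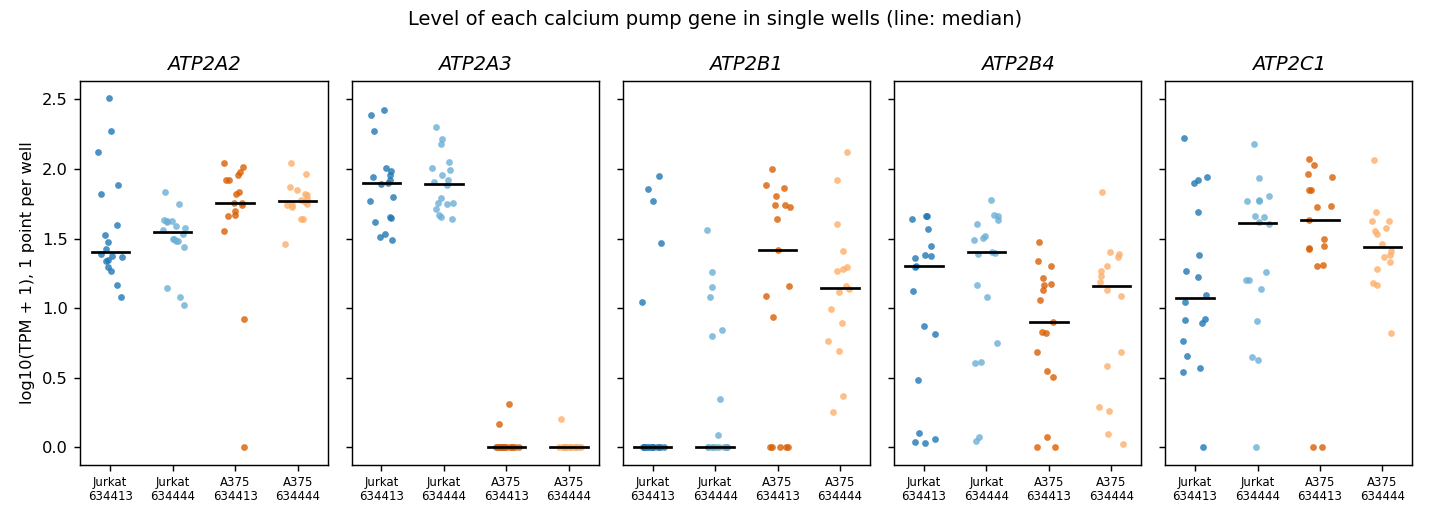
Level of each pump gene as log10(TPM + 1) on the vertical axis, with 1 point per deeper well and the median as a line, for both lines and both kits. The 18 Jurkat wells of each kit lie above every A375 well for ATP2A3, while the lines overlap for ATP2A2, ATP2B1, ATP2B4 and ATP2C1.

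Within a well, the share of one SERCA gene in the TPM of all 3 is not scaled by depth. In Jurkat the ATP2A3 share ran from 20.5% through a median of 68.1% to 92.6% with kit 634413 and from 45.1% through 69.8% to 94.01% with kit 634444. It was over 50% in 14 of 18 and 17 of 18 wells, so ATP2A2 led by TPM in 4 wells and 1 well. In those wells ATP2A3 still had more counts than ATP2A2. With kit 634413 the counts were 446 against 356, 393 against 328, 341 against 260 and 795 against 503. With kit 634444 they were 151 against 150. The part of short transcripts such as ATP2A2-211 in the TPM order was not tested. In A375 the ATP2A3 share was 0 in 14 of 16 and 15 of 16 wells and reached 1.67% and 1.02%.

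The 2 PMCA genes went in opposite directions between the lines. ATP2B4, which encodes PMCA4, was 2.29-fold (2.16 to 2.44) higher in Jurkat with kit 634413 and 3.25-fold (3.05 to 3.47) higher with kit 634444, at 220 CPM and 299 CPM against 95.8 CPM and 92.1 CPM. ATP2B1, which encodes PMCA1, the form made in most tissues, was 6.51-fold (5.57 to 7.63) and 14.6-fold (11.6 to 18.5) higher in A375, at 76.5 CPM and 93.6 CPM against 11.7 CPM and 6.42 CPM. Of all genes measured, at least 2-fold higher levels in Jurkat were seen for 25.8% with kit 634413 and 22.4% with kit 634444, and at least 2-fold lower levels for 33.2% and 31.1%. Of the 5 pump genes, 2 were higher in Jurkat with each kit, and 2 were lower with kit 634413 and 1 with kit 634444.

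ATP2B4 varied widely between Jurkat wells, with a coefficient of variation of 1.15 and 0.751. Between A375 wells it was 1.18 and 1.39, close to Jurkat with kit 634413 and larger with kit 634444. In Jurkat the coefficient was higher for ATP2B1 (1.80 and 1.73) and lower for ATP2C1 (0.958 and 0.668), ATP2A3 (0.578 and 0.276) and ATP2A2 (0.475 and 0.362). It ran from 1.40 CPM through 131 CPM to 883 CPM with kit 634413 and from 1.92 CPM through 350 CPM to 706 CPM with kit 634444. In A375 it ran from 0 through 46.1 CPM to 330 CPM and from 0.863 CPM through 83.1 CPM to 529 CPM. The lines overlapped, with 5 of 18 and 3 of 18 Jurkat wells above the highest A375 well. Without Jurkat replicate 9 of kit 634413, the well of 883 CPM, the ratio with that kit was 1.96-fold and no longer passed the limit.

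ATP2B1 was not detected in most Jurkat wells. At least 1 count was present in 5 of 18 and 7 of 18 Jurkat wells, against 12 of 21 and 16 of 21 A375 wells. With wells thinned to the same 203424 counts outside the ribosomal DNA unit and spikes, which 2 deeper A375 wells of kit 634413 did not reach, it was detected in 5 of 18 and 6 of 18 Jurkat wells and in 11 of 15 and 15 of 16 A375 wells. The highest Jurkat wells reached 47.2 CPM and 28.8 CPM, and 9 of 17 and 12 of 16 A375 wells stood above them. The mean of TPM over all wells, with the 4 and 5 shallower A375 wells, brought the A375 over Jurkat ratio down to 1.91-fold with kit 634413 and 3.81-fold with kit 634444. Over the deeper wells the means were 33.5 TPM and 24.8 TPM in A375 against 14.2 TPM and 4.96 TPM in Jurkat, more than 2-fold apart with each kit.

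Jurkat wells with ATP2B4 and no ATP2B1 numbered 13 of 18 and 11 of 18, and none had ATP2B1 alone. These numbers take 1 count as detection. ATP2B4 had at least 5 counts in 14 of 18 and 16 of 18 Jurkat wells, and its lowest wells held 1.10 and 1.66 counts, so a share can rest on few counts. In A375 both genes were found together in 12 of 17 and 14 of 16 deeper wells. The median ATP2B4 share of PMCA TPM was 100% and 99.0% in Jurkat and 26.2% and 39.02% in A375, but the range was wide in each group, from 1.95% to 100% in Jurkat with kit 634444. The neuronal PMCA genes ATP2B2 and ATP2B3 had at most 20 counts in any group.

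**Figure D2:**
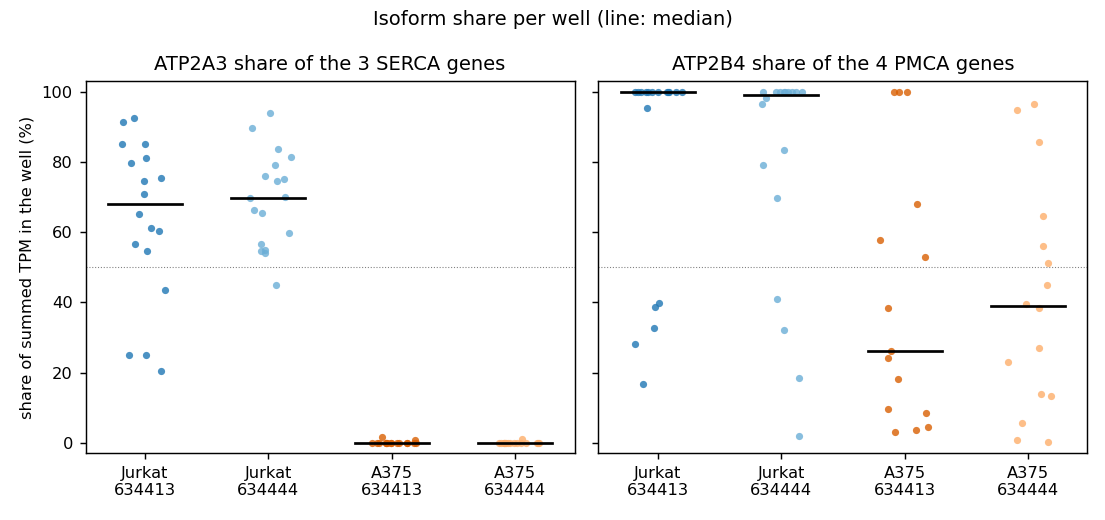
Share of ATP2A3 in the TPM of the 3 SERCA genes (left) and of ATP2B4 in the TPM of the 4 PMCA genes (right), in percent, with 1 point per deeper well and the median as a line. ATP2A3 made up a median of 68.1% and 69.8% in Jurkat and 0 in A375, and the ATP2B4 share spread over nearly the whole scale in each line.

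ATP2C1, the Golgi pump SPCA1, did not differ in the same direction with both kits. With kit 634413 it was 2.07-fold (1.92 to 2.25) higher in A375, at 121 CPM against 58.5 CPM. With kit 634444 it was 1.12-fold (1.03 to 1.22) higher in Jurkat, at 82.5 CPM against 73.6 CPM. Wells ran from 0 through medians of 43.6 CPM and 70.9 CPM to 193 CPM and 198 CPM in Jurkat, and in A375 from 0 through 87.9 CPM to 251 CPM with kit 634413 and from 38.4 CPM through 78.4 CPM to 181 CPM with kit 634444. The call with kit 634413 ended without A375 replicate 14 (1.76-fold) and without any of Jurkat replicates 10, 11, 15 and 16 (1.92-fold to 1.95-fold). As a mean of all wells, with the 4 shallower A375 wells, the value was 1.42-fold. Over the deeper wells the means were 106 CPM in A375 and 61.2 CPM in Jurkat, also under 2-fold. It also ended at 1.91-fold when the median of all genes, which lay at -0.12 on the log2 scale with this kit and -0.10 with the other, was set to 0. ATP2C2, the other SPCA gene, had 4 counts in Jurkat with kit 634444 and 0 in the other groups.

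**Figure D3:**
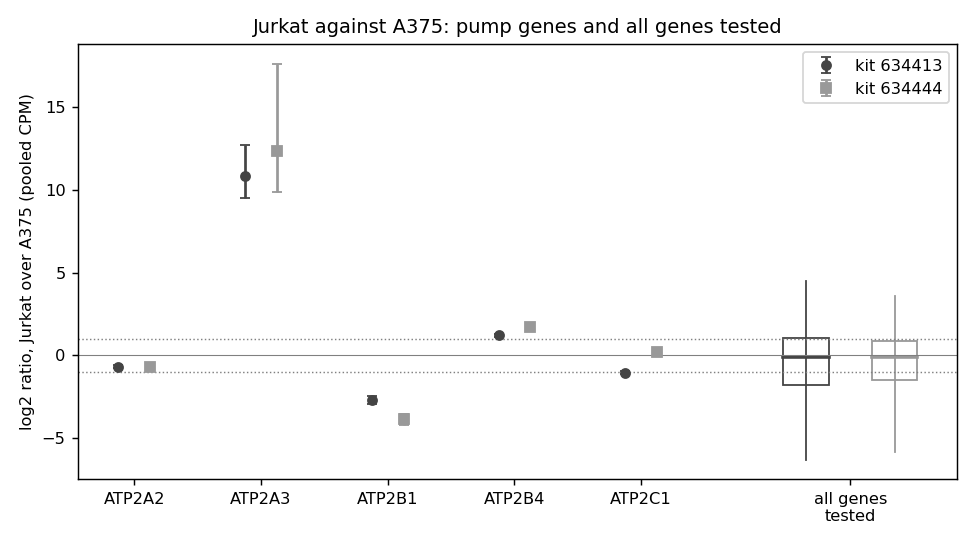
Log2 ratio of Jurkat over A375 in pooled CPM on the vertical axis for the 5 pump genes, with exact 95% counting intervals, and for all genes measured (box from the 25th to the 75th percentile, line at the median, whiskers from the 5th to the 95th). Dotted lines mark 2-fold; ATP2A3 lies above the upper whisker with both kits, at 10.87 and 12.34.

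Levels of different genes were ordered only by TPM, which is per length. In Jurkat ATP2A3 came first, with medians of 77.7 TPM and 77.2 TPM, above the next gene in 14 of 18 and 15 of 18 wells. With kit 634413 ATP2A2 (24.5 TPM), ATP2B4 (18.9 TPM) and ATP2C1 (10.7 TPM) followed, and with kit 634444 ATP2C1 (39.9 TPM), ATP2A2 (34.5 TPM) and ATP2B4 (24.2 TPM). Neighbours among these 3 were in that order in only 10 to 12 of 18 wells, so their places are not separated by the spread. ATP2B1 came last at a median of 0.

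In A375 ATP2A2 came first, at 56.3 TPM and 57.8 TPM, and ATP2C1 second, at 42.3 TPM and 26.3 TPM, with ATP2A2 the higher in 11 of 17 and 14 of 16 wells. ATP2B1 (25.1 TPM) and ATP2B4 (6.99 TPM) followed by median with kit 634413, and their medians exchanged places with kit 634444 (12.99 TPM and 13.4 TPM). The wells did not separate them. ATP2B1 lay above ATP2B4 in 9 of 17 wells with kit 634413, and ATP2B4 above ATP2B1 in only 6 of 16 with kit 634444. In 16 of 16 wells of kit 634444 ATP2B1 lay above ATP2A3, the only neighbouring pair in any group whose ranges did not overlap. SERCA genes together held a median of 65.9% and 61.3% of pump TPM in Jurkat and 40.7% and 52.1% in A375, with wells of each line on both sides of these values.

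The comparison of kits within a line addressed whether the choice of library chemistry moved these levels. None of the pump genes with at least 50 counts over both kits differed 2-fold; ATP2A3 in A375, with 4 counts against 1, was too low to compare. In Jurkat the ratio of kit 634444 over kit 634413 was 0.991-fold (0.943 to 1.04) for ATP2A2, 0.823-fold (0.794 to 0.853) for ATP2A3 and 0.547-fold (0.415 to 0.712) for ATP2B1. It was 1.36-fold (1.30 to 1.43) for ATP2B4 and 1.41-fold (1.29 to 1.54) for ATP2C1. In A375 it was 0.992-fold (0.955 to 1.03) for ATP2A2, 1.22-fold (1.13 to 1.33) for ATP2B1, 0.962-fold (0.892 to 1.04) for ATP2B4 and 0.607-fold (0.562 to 0.656) for ATP2C1. Over all genes 12.8% were at least 2-fold higher and 15.8% at least 2-fold lower with kit 634444 in Jurkat, and 10.1% and 10.6% in A375. The ATP2B1 value in Jurkat rests on 185 and 81 counts and passed 2-fold without replicate 1 (2.40-fold), 5 (2.26-fold) or 16 (2.16-fold) of kit 634444.

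Both SERCA genes are known for transcripts that differ at the end of the coding sequence, and the files divide the counts among them. The last 45 coding bases of the main forms are shown from the GENCODE transcripts on hg38, with the stop codon in capitals.
ATP2A2-204 (1042 codons, the form known as SERCA2b), chr12:110346426-110346470: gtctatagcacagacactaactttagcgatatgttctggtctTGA
ATP2A2-201 (997 codons, SERCA2a), chr12:110346291-110350305 across a junction: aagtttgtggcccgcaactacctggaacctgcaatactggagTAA
ATP2A3-205 (999 codons), chr17:3925422-3928687 across a junction: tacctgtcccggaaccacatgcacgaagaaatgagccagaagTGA
ATP2A3-201 (1029 codons), chr17:3925433-3928262 across a junction: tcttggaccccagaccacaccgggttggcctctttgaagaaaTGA
ATP2A3-206 (998 codons), chr17:3925422-3928690 across a junction: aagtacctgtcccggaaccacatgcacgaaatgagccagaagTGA
Counting from the first coding base, ATP2A2-201 leaves ATP2A2-204 at base 2981, and ATP2A3-201 and ATP2A3-206 leave ATP2A3-205 at bases 2981 and 2983. ATP2A3-204 has the same ending as ATP2A3-201.

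ATP2A2-204 held most ATP2A2 counts in A375, 66.1% and 58.9%, and led in 15 of 15 and 14 of 16 wells with at least 50 counts of the gene. In Jurkat it held 41.4% with kit 634413 and 72.8% with kit 634444, and led in 8 of 18 and 13 of 17 wells. ATP2A2-207, a coding transcript of 2951 bases, took 19.1% and 7.41% in Jurkat and 0.170% and 1.14% in A375. ATP2A2-201, the SERCA2a form of heart and slow muscle, had between 3.25% and 17.1%.

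ATP2A3-205 was the leading ATP2A3 transcript in Jurkat, with 39.1% and 58.5% of counts, ahead in 10 of 17 and 10 of 18 wells. ATP2A3-201 followed with 34.5% and 15.6%, ATP2A3-206 had 9.96% and 10.7%, and ATP2A3-204 had 5.99% and 5.41%. Protein coding transcripts together held 92.5% and 94.5%. The leading transcript held a median of 82.7% and 70.2% of a well's ATP2A3 counts, and at least 90% in 6 of 17 and 5 of 18 wells, although it was not the same one in all of them: 4 and 5 different transcripts led. Estimates of this kind divide reads that fit several transcripts, and the division within a gene is less certain than its sum.

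**Figure D4:**
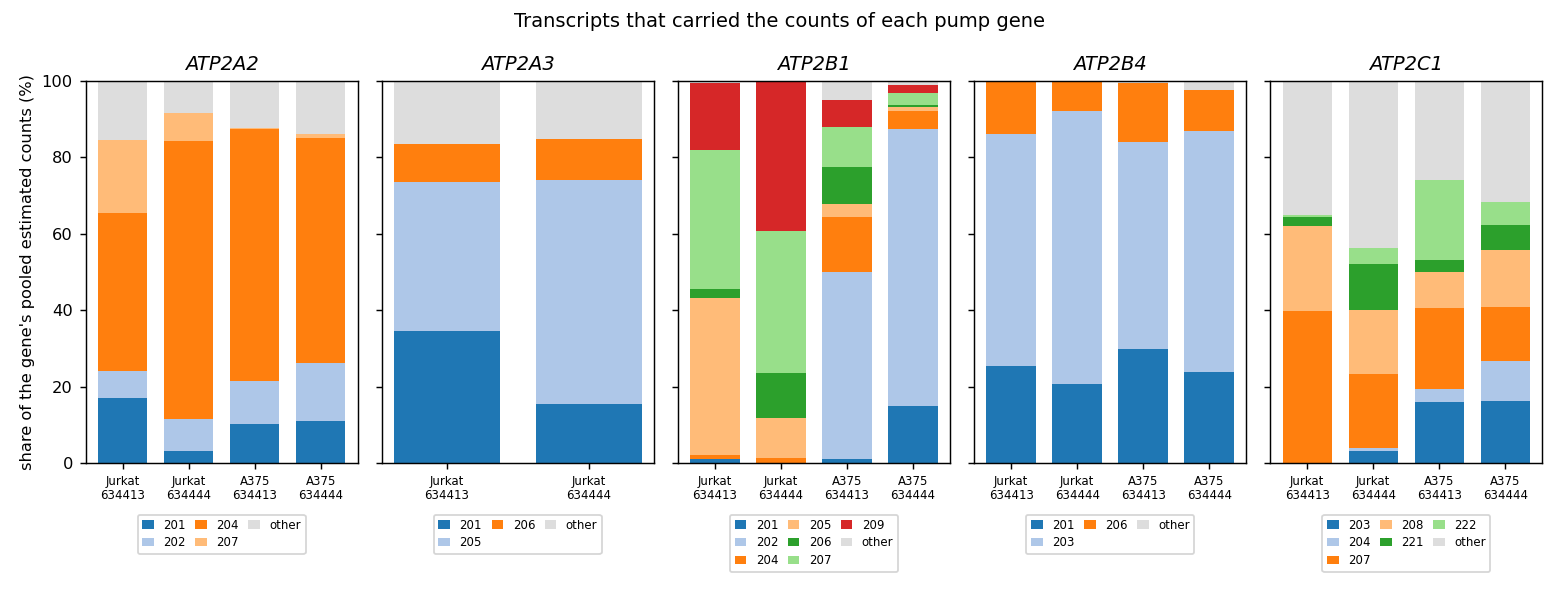
Share of each pump gene's pooled estimated counts that was assigned to each transcript, in percent, for both lines and kits; the colours name the transcripts that reach 10% in any group, and ATP2A3 is shown for Jurkat only since A375 had 4 and 1 counts. ATP2B1-202 holds 48.9% and 72.6% of ATP2B1 in A375 and does not show in Jurkat.

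For ATP2B1 the transcript counts parted with the lines. The full-length ATP2B1-202 (7032 bases) held 48.9% and 72.6% of A375 counts. Counts favour long transcripts, and per length it held 8.44% and 33.3% in A375. In Jurkat it had less than 1 count in either group, and 95.3% and 86.9% of the few counts lay on 3 coding entries that are short in the files' annotation, ATP2B1-205 (486 bases), ATP2B1-207 (607 bases) and ATP2B1-209 (1358 bases). In A375 these 3 entries held 21.1% and 6.29% of counts. Per length, ATP2B1-205 held 14.8% and 11.9% there, ATP2B1-207 31.1% and 22.9%, and ATP2B1-209 7.17% and 5.99%. The lines thus differ less per length than by counts. ATP2B1-205 and ATP2B1-209 begin 106 kb into the 121 kb gene, at its 3' end. ATP2B1-207 has 607 bases in the files' annotation but 7121 bases in GENCODE 44, so its counts need not come from a short transcript. Counts on an entry taken as that short weigh more in TPM than in CPM. ATP2B1 is overlapped on the other strand by ATP2B1-AS1, as ATP2C1 is by ASTE1, and the counting used strand.

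ATP2B4-203 held the most pooled ATP2B4 counts in every group, 54.1% to 71.4%, followed by ATP2B4-201 with 20.7% to 29.95%. By well the order was less clear: in A375 with kit 634413 each led in 4 of 8 wells with at least 50 counts of the gene, and the numbers led were 4 and 2 of 7 with kit 634444, against 6 and 3 of 11 and 9 and 4 of 13 in Jurkat. They end differently, and are shown for the same reason as the SERCA forms.
ATP2B4-203 (1205 codons), chr1:203739810-203739854: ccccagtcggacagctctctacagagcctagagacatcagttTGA
ATP2B4-201 (1170 codons), chr1:203733382-203739571 across a junction: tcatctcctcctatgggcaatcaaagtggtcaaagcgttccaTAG
ATP2B4-201 leaves ATP2B4-203 at coding base 3313, in the region that binds calmodulin in PMCA pumps. ATP2C1 counts were spread over many of its 24 transcripts: ATP2C1-207 held 14.1% to 39.8% and ATP2C1-208 held 9.46% to 22.2%. The retained intron transcript ATP2C1-222 had 20.8% in A375 with kit 634413 and 0.571% to 5.997% elsewhere.

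The other genes of calcium handling were taken from 9 lists with 59 genes, of which 52 and 50 had at least 50 counts. With kit 634413, 12 of 52 were at least 2-fold higher in Jurkat, against 25.8% of all genes, and 18 of 52 higher in A375, against 33.2%, with a median log2 ratio of -0.49 against -0.12 over all genes. With kit 634444 it was 13 of 50, against 22.4%, and 12 of 50, against 31.1%, with a median of -0.13 against -0.10. These counts lie near those over all genes.

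Of the store-operated entry genes, which refill the stores that SERCA pumps fill, 2 of 6 and 1 of 6 were higher in Jurkat (25.8% and 22.4% of all genes) and 1 of 6 with each kit was higher in A375. STIM1, the sensor of reticulum calcium, was 4.66-fold (4.14 to 5.25) and 5.73-fold (5.04 to 6.51) higher in Jurkat. ORAI3, a channel subunit, was at least 28.4-fold higher in A375 with kit 634413, where Jurkat had 0 counts and the floor of 3 counts over the group was used, and 2.02-fold (1.38 to 3.01) with kit 634444. Among release channels, ITPR3, an inositol trisphosphate receptor, was 2.94-fold (2.80 to 3.08) and 4.49-fold (4.19 to 4.82) higher in A375. RYR2, the cardiac ryanodine receptor, also had 0 counts in Jurkat with kit 634413. At the floor it was 145-fold higher in A375, with an interval from 117-fold, and with kit 634444 it was 73.4-fold (35.4 to 183) higher.

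The small membrane proteins that bind SERCA, among them phospholamban, its inhibitor in heart muscle, were under 50 counts in 5 of 6 cases. ARLN, whose product is another-regulin, was 2.05-fold (1.70 to 2.47) and 2.82-fold (2.33 to 3.44) higher in Jurkat. Of the 5 PMCA partner and calmodulin genes, 1 with each kit was higher in Jurkat (25.8% and 22.4% of all genes). In A375, 2 of 5 and 1 of 5 were higher (33.2% and 31.1%). CALM3, a calmodulin gene, was 3.95-fold (3.74 to 4.19) and 5.31-fold (4.96 to 5.69) higher in Jurkat. CALM2, another calmodulin gene, was 2.63-fold (2.49 to 2.78) and 1.34-fold (1.27 to 1.42) higher in A375, named after its values were seen. NPTN, which encodes the PMCA subunit neuroplastin, was 2.60-fold (2.31 to 2.92) and 2.94-fold (2.56 to 3.37) higher in A375.

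The sodium-calcium exchangers, which include the other main route of calcium out of the cell, were higher in A375 in 5 of 6 and 3 of 5 of the cases measured, where the share over all genes was 33.2% and 31.1%. The others were SLC8B1, the exchanger of mitochondria, with log2 ratios of 2.78 and 2.06 in favour of Jurkat, and with kit 634444 SLC24A1, at 1.11-fold (0.893 to 1.37) after 17.6-fold (12.03 to 26.8) with kit 634413, both named after their values were seen. SLC8A1 had 0 counts in Jurkat with both kits and was at least 28.7-fold and 19.5-fold higher in A375, and SLC24A3, also at 0, at least 41.9-fold and 84.2-fold. In the mitochondrial uptake list MCUB, a subunit that restrains the uniporter, was 3.51-fold (2.79 to 4.46) and 7.28-fold (5.61 to 9.60) higher in Jurkat. SMDT1, the uniporter regulator, was at 1.79-fold (1.33 to 2.43) and 2.01-fold (1.49 to 2.74).

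Of the calcium-binding proteins of the reticulum, 4 of 8 and 2 of 8 were higher in A375 (33.2% and 31.1% of all genes) and 1 of 8 with each kit was higher in Jurkat. The latter was CALR, calreticulin, at 2.12-fold (2.06 to 2.17) and 2.19-fold (2.13 to 2.26), named after its values were seen. In A375, RCN1, reticulocalbin, was 9.10-fold (8.19 to 10.11) and 8.17-fold (7.42 to 9.04) higher, and CALU, calumenin, 2.76-fold (2.63 to 2.89) and 3.27-fold (3.08 to 3.48). In the Golgi list NUCB2, a calcium-binding nucleobindin, was 15.9-fold (14.1 to 18.03) and 8.74-fold (7.90 to 9.67) higher in Jurkat, and NUCB1 was at 1.69-fold (1.57 to 1.82) and 2.17-fold (1.96 to 2.41) in favour of A375. In the calcineurin and NFAT list, which acts on the calcium signal, 3 of 9 and 4 of 9 were higher in Jurkat (25.8% and 22.4% of all genes). In A375, 1 of 9 and 2 of 9 were higher (33.2% and 31.1%). NFATC1 was 6.78-fold (5.61 to 8.25) and 5.60-fold (4.62 to 6.83) higher in Jurkat. The calcineurin subunit gene PPP3CA was 3.24-fold (2.81 to 3.74) and 4.87-fold (4.08 to 5.84) higher in A375. PPP3CC, another calcineurin subunit gene, was 2.33-fold (1.96 to 2.78) and 2.65-fold (2.21 to 3.18) higher in Jurkat, named after its values were seen.

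**Figure D5:**
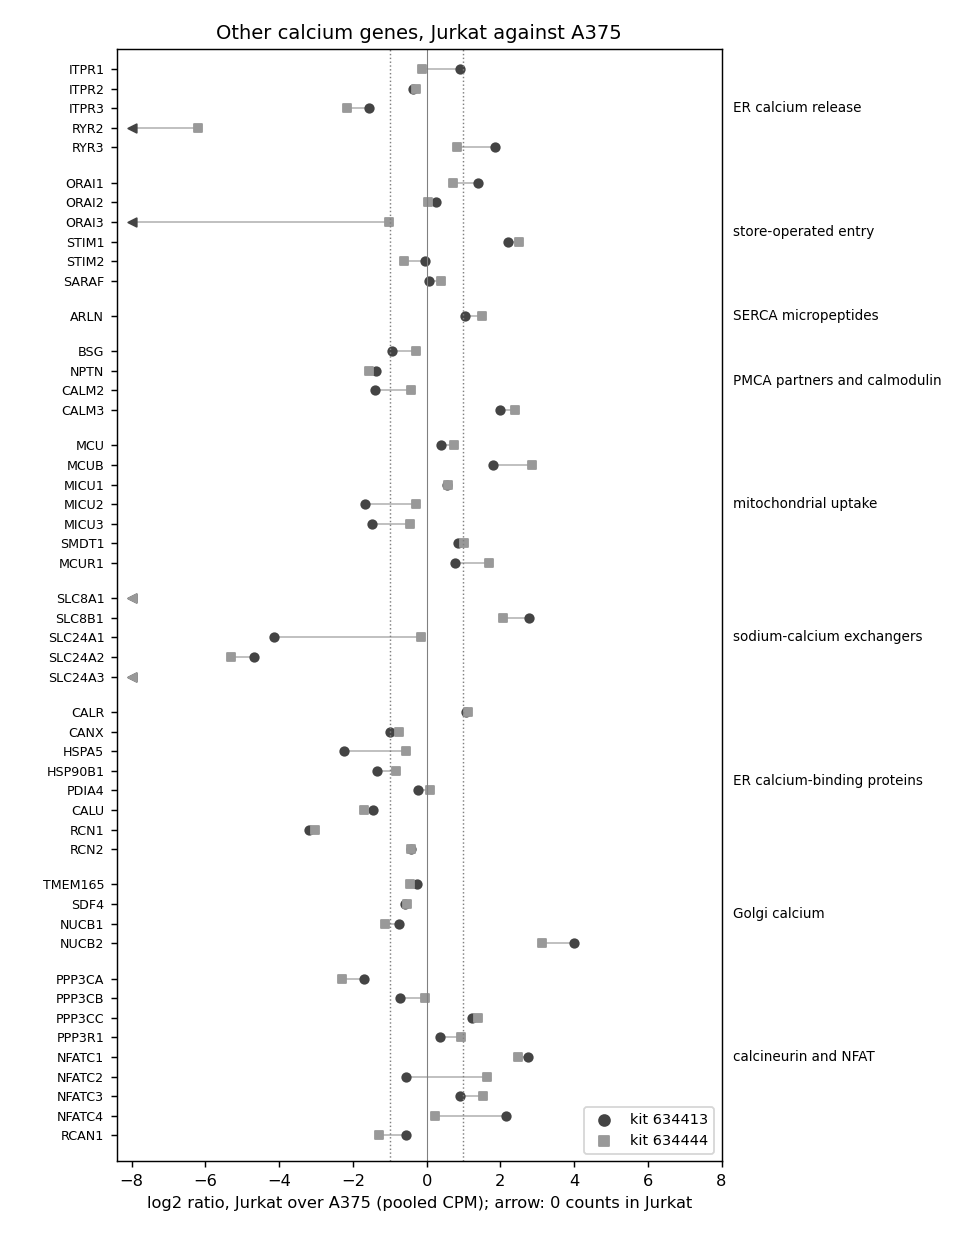
Log2 ratio of Jurkat over A375 in pooled CPM on the horizontal axis for calcium genes with at least 50 counts with each kit, grouped by list; circles are kit 634413, squares kit 634444, dotted lines 2-fold, and arrows genes with 0 counts in Jurkat. STIM1, CALM3, MCUB, NUCB2 and NFATC1 lie to the right with both kits, and ITPR3, RCN1, SLC8A1 and SLC24A3 to the left.

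The genes whose level over the 69 deeper wells was most like that of ATP2A3 were LCP1, an actin-bundling protein of white blood cells (Pearson r of log2(CPM + 10) 0.986), ARHGDIB (0.978), ADA, adenosine deaminase (0.970), CD3E, a T cell receptor chain (0.969), and ZAP70, the receptor's kinase (0.961), out of 12291 protein coding genes. The wells share their line, and the likeness lies mostly between lines: within the 36 Jurkat wells r was 0.43 for LCP1 and between -0.02 and 0.14 for the other 4. LCP1 had 1503 CPM and 1338 CPM in Jurkat and 0 and 0.224 CPM in A375.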

How the data were processed

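Total RNA of single sorted cells was sequenced in 78 wells. The authors trimmed the reads and quantified transcripts with Kallisto 0.43.1 against Ensembl 91 on hg38, with strand; the processing notes also name STAR 2.5.3. The deposited tables hold, per transcript and well, estimated counts and TPM (transcripts per 1000000, as deposited by the authors). The 78 tables were read as they stand; 195850 of 200206 Ensembl transcripts were matched by identifier to genes of GENCODE 44, and 4356 were not. Estimated counts and TPM were summed per gene and well.

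Groups were line and kit. Each well is 1 cell and no culture is named, so a group counts as 1 sample: no test was run, and called means a 2-fold ratio of pooled CPM among genes with at least 50 counts over both groups. No 2 wells were identical (0 of 3003 pairs). Intervals are exact Poisson (levels) and exact conditional binomial (ratios) at 95%. Software was Python 3.11.15, numpy 2.4.6, pandas 2.3.3, scipy 1.17.1 and, in R 4.3.3, edgeR 4.0.16 for TMM (a trimmed mean scaling of the counts). Detection means at least 1 count. Other genes were named by a rule, up to 2 per list with the largest ratio in the smaller of both kits, plus 5 genes by correlation with ATP2A3. The members, lists and rules were chosen with earlier results of these data known. Alternatives covered denominators, scaling, the summary over wells, depth, TPM, coding transcripts and leaving out each well; the limit of 25% coding counts was added after seeing the data. Beside the genes that the rule leaves unnamed, 1 listed gene is not reported here, in text or plot, though it is in the counts.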

Additional observations from a re-analysis of the deposited data

How the results depend on the processing

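The directions of ATP2A3, ATP2B1 and ATP2B4 between Jurkat and A375 held under every alternative that gave a value, with both kits. Several moved in size by over 1.5 times. Means and medians of wells and mean TPM were taken here over all wells, with the 4 and 5 shallower A375 wells. Mean TPM took ATP2B1 from 6.51-fold to 1.91-fold and from 14.6-fold to 3.81-fold. ATP2B4 with kit 634444 was 3.25-fold pooled, 2.13-fold from mean TPM and 13.1-fold as a median of all wells. Its medians over the deeper wells were 350 CPM in Jurkat and 83.1 CPM in A375. For ATP2A3 with kit 634444 the log2 ratio was 12.34 pooled, 13.16 as a mean of wells and 11.58 from mean TPM, and with kit 634413 it ran from 10.65 to 12.77 when each well was left out in turn, the highest without A375 replicate 3. The kit comparison of ATP2A3 in A375, from 4 counts against 1, was -1.75 on the log2 scale, -2.38 as a mean of wells and -1.96 to 0.15 with a well left out, reversing without A375 replicate 3 of kit 634413. Between lines with kit 634413, mean TPM took ATP2B4 to 1.90-fold. ATP2C1 fell under the limit as a median of all wells (1.93-fold), from mean TPM (1.28-fold) and from coding transcripts alone (1.75-fold). Its medians over the deeper wells, 87.9 CPM in A375 and 43.6 CPM in Jurkat, lay just over 2-fold apart. Between kits in Jurkat, ATP2B1 passed the limit from mean TPM (2.86-fold) and from coding transcripts (2.03-fold). In the kit comparison the median of wells took ATP2B4 to 2.67-fold higher with kit 634444 in Jurkat. Mean TPM took ATP2A2 between kits in Jurkat to 1.76-fold lower with kit 634444. Directions turned under some settings for the kit comparisons of ATP2A2 in both lines and of ATP2B1 and ATP2B4 in A375, all under 1.5-fold; the cause was not tested. The added limit of 25% coding counts left out 6 and 1 A375 wells and ended no call.

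The number of genes past the limit depends on it. With a limit of 4-fold, 2461 and 1783 genes were higher in Jurkat (kit 634413 and 634444), 3451 were lower with kit 634444, 847 were higher and 1155 lower between kits in Jurkat, and 572 and 673 in A375. With a minimum of 1 count in each group, 3655 genes were higher between kits in Jurkat, and 4343 were higher and 3457 lower in A375. No paired analysis was possible because replicate numbers only count wells and no test was run.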
